A study of Mus musculus with 7 samples.

Results

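Very broad H3K27me3 domains are stretches of chromatin that carry the trimethylated lysine 27 of histone H3 over very long distances. The 549 domains described here are the merged autosomal regions of at least 200 kb that held an island, a run of enriched windows called in one library, in each of 7 liver lists, out of 17394 merged regions in all. Any islands of the 7 lists that overlapped or met end to end were joined into one region. The domains were thus chosen by measured values of these livers, namely their joined length and their presence in every list, and both are given below as description. Livers came from wild-type male CD-1 mice of 7 weeks, an outbred stock: 3 mice were injected with vehicle (1% DMSO in corn oil) and 4 with TCPOBOP at 3 mg/kg, and tissue was taken 27 h later. Each sample was 1 frozen liver from 1 animal. TCPOBOP is an agonist of the mouse constitutive androstane receptor (CAR), and the design asked how it acts on this mark. The samples were whole liver, so a mark present in fewer cells and a weaker mark in every cell cannot be told apart. The identity of the tissue was not checked against marker genes, because no gene annotation of the build of the lists (mm9) was used here.

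H3K27me3 is written by Polycomb repressive complex 2, whose EZH1 or EZH2 subunit adds the methyl groups and whose EED subunit binds the finished mark, so that the mark can spread from a first site to neighbouring nucleosomes. Polycomb repressive complex 1 binds the mark and compacts the chromatin. In adult tissues the widest Polycomb domains are known to lie over CpG-rich clusters of developmental regulators that the tissue keeps silent, such as Hox genes, and over genes of other lineages.

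No mm9 annotation paired positions with genes, so gene names below are background from general knowledge of where these genes lie in mm9, given for 10 domains chosen after their values had been seen. The RefSeq table of GRCm38.p6 placed the gene looked up for each of the 10 domains on the chromosome of its domain, and that was the only check made. Promoter sequences are shown for 3 of these genes because CpG-rich promoters are the classic entry points of Polycomb complexes. The 250 bases before the start site in RefSeq GRCm38.p6 are given 5′ to 3′, with each CG dinucleotide in capitals; they lie at chr8:12395269-12395518 (Sox1), chr2:74667975-74668224 (Hoxd13) and chr5:147269847-147270096 (Pdx1), all on the plus strand.
Sox1: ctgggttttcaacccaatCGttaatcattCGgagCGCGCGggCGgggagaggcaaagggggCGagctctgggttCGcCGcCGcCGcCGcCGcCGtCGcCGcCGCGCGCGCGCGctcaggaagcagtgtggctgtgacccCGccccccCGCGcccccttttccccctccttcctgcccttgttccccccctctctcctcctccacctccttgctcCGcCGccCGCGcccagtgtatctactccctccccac
Hoxd13: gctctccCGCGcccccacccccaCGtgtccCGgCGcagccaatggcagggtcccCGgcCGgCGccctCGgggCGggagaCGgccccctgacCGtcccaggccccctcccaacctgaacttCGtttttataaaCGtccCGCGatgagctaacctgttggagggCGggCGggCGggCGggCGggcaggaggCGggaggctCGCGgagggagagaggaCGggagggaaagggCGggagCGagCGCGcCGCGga
Pdx1: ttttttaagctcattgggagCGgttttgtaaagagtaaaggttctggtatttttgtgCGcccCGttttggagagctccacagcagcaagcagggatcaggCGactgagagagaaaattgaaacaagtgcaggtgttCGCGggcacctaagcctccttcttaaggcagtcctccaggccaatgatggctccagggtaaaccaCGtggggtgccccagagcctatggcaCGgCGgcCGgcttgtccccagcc

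The CG dinucleotide, which reads the same on both strands, occurred 29 times before Sox1, 31 times before Hoxd13 and 10 times before Pdx1, against a median of 6 over all 32851 promoters of the table. As many or more were found in 6.78%, 5.19% and 37.8% of all promoters. The first 2 promoters were thus among the richest in CG, and that of Pdx1 was not far above the middle. These counts describe the reference sequence, and the mark on these promoters was not read.

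The 7 lists held 14167 to 20550 islands each, covering 537 to 605 Mb, and gave no read numbers. Vehicle replicate 2 and TCPOBOP replicate 2 stood apart in 3 ways: they had the shortest total length (537 Mb each), the highest median score per 400-bp window over all islands (3.02 and 3.05, against 2.56 to 2.79 in the other 5) and the largest share of their autosomal island length inside the broad domains (25.98% and 26.1%, against 23.4 to 24.4%). Vehicle replicate 1 had the fewest islands and the highest lowest score (100.7, against 66.6 to 79.4 in the others). The group differences in cover and breaks are given below with and without each of these 3 libraries.

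Broad domains were few but took up much of the marked genome. They made up 3.17% of the 17341 autosomal regions, 8.30% of the 6616 autosomal regions with an island in every list, and 18.1% of the 915 Mb of merged autosomal length, or 166 Mb. Their length had a median of 268 kb with quartiles at 229 and 336 kb; 197 reached 300 kb, 33 reached 500 kb and 1 exceeded 1000 kb. At the threshold, the shortest members were a 200.0-kb domain on chromosome 17 from 43112401 to 43312400 and domains of 200.4 kb on chromosome 12 from 109511601 and chromosome 7 from 122421201, with mean covers of 75.2%, 79.0% and 72.4%. The regions just outside were 199.6 kb on chromosome 1 from 191509601, 199.6 kb on chromosome 8 from 107853601 and 199.2 kb on chromosome 18 from 62790401, with mean covers of 88.4%, 90.6% and 81.1%. Domains just inside the threshold were thus no better covered than regions just outside it.

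A further 3 autosomal regions were long enough but lacked an island in at least 1 list. A region on chromosome 11 from 95952401 to 96253200, 300.8 kb long, is by general knowledge the HoxB cluster. It had an island in 4 lists, covering 95.6%, 95.1%, 89.0% and 89.0% of it in vehicle replicates 2 and 3 and TCPOBOP replicates 1 and 2, and none in the other 3. Its score per window, averaged over the 4 lists, was 4.23 times the list median. The other two, on chromosome 1 from 63464001 and chromosome 11 from 78825201, lacked an island in 1 list each.

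Most domains were broad only after the lists were merged. In 341 of 549 domains (62.1%) no liver had a single island of 200 kb, in 208 at least 1 liver had one, and in 8 all 7 livers did. Vehicle replicates 1 to 3 had such an island in 109, 93 and 67 of the domains, and TCPOBOP replicates 1 to 4 in 55, 75, 90 and 69. The ranges overlapped, with the highest count in vehicle replicate 1 and the lowest in TCPOBOP replicate 1. The longest island within a domain had a median length of 97.6 to 120.4 kb in the 7 livers. Most domains were therefore chains of islands within a liver. Very broad here describes the joint extent over 7 animals more than a single unbroken block.

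The length under islands in all 7 livers at once, the shared core, came to 93.4 Mb or 56.2% of domain length. In the 6067 shorter autosomal regions with an island in every list it was 38.5%. The classes on either side of the length threshold were closer: the mean core was 45.7% at 150 to 200 kb and 50.3% at 200 to 300 kb. A further 16.8% of domain length had an island in 6 livers and 2.58% in only 1. Core shares ran from 0% to 97.0% with a median of 57.5%; 10 domains exceeded 90% and 92 were under 30%. For 2 domains, on chromosome 1 from 71304401 to 71528000 and chromosome 4 from 101857201 to 102097200, no window was under an island in all livers. Every liver marked these regions somewhere, but no window was common to all 7. Places shared by fewer livers are not excluded by this.

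**Figure D1:**
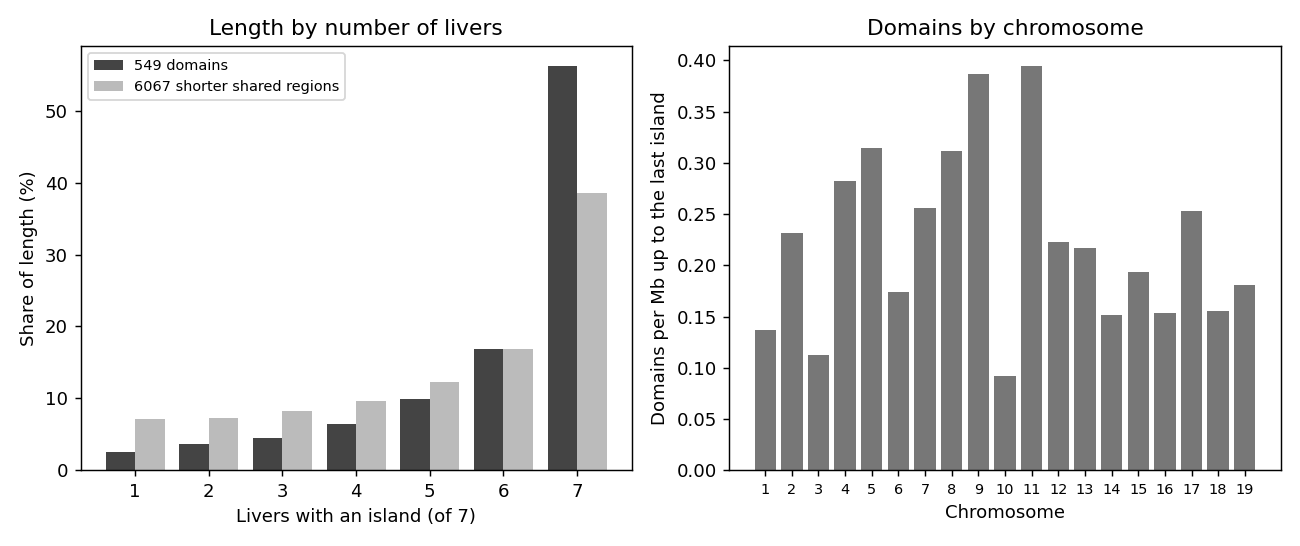
Left, share of length (%) by the number of livers, from 1 to 7, that have an island there, for the 549 domains (dark) and the 6067 shorter autosomal regions found in all livers (light); 56.2% of domain length and 38.5% of the length of the shorter regions lie under islands in all 7. Right, domains per Mb of each chromosome, counted up to the end of its last island, highest on chromosomes 11 and 9 and lowest on chromosome 10.

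Few outer edges lay at one position in all livers. The start of the first island or the end of the last differed between livers by a median of 14.4 kb over 1098 edges, with quartiles at 5.6 and 30 kb. Only 30 edges (2.73%) were within 1 window of 400 bp in all 7 livers, and 107 (9.74%) moved by more than 50 kb. Both edges held within 10 kb in 87 domains. The median edge range was 8.00 kb in shared regions under 50 kb, 17.6 kb at 100 to 150 kb, and 12 kb in the 33 domains of 500 kb or more. A domain on chromosome 7 from 143437201 to 143849200 had sharp borders, with edges that varied by 0.4 and 2.4 kb.

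Cover was lowest in shared regions of 50 to 100 kb and higher in each longer class. Islands covered on average 74.2% of regions under 50 kb, 71.0% of regions of 50 to 100 kb, 78.9% at 150 to 200 kb, 81.7% of the 352 domains of 200 to 300 kb, 87.1% of the 164 domains of 300 to 500 kb and 89.2% of the 33 longer ones. Score per window relative to the list median was 1.08 at 50 to 100 kb, 1.15 at 150 to 200 kb and 1.20, 1.26 and 1.23 in the 3 classes of domains, but it was also 1.24 in regions under 50 kb. A high score density was thus found at both ends of the length range. Breaks per 100 kb were 1.23 at 150 to 200 kb and 1.23, 1.08 and 1.15 in the domain classes. Since length chose the domains, these differences were not tested.

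The widest domain, on chromosome 12 from 107577201 to 109103600, reached 1526 kb and averaged 1.84 breaks per 100 kb. Its 7 lists held 20, 30 and 32 islands in vehicle replicates 1 to 3 and 36, 28, 28 and 30 in TCPOBOP replicates 1 to 4. Islands covered 1159, 1289 and 1161 kb of it with vehicle and 1276, 1300, 1306 and 1173 kb with TCPOBOP. The groups overlapped: means were 1203 ± 74.4 kb (SD, n = 3) and 1264 ± 62.0 kb (SD, n = 4), a difference of 60.9 kb (two-sided exact permutation p = 0.229, with 0.0286 the smallest p that 35 splits allow). The number of islands did not pass either (27.3 ± 6.43 and 30.5 ± 3.79, exact permutation p = 0.543). Its score per window was 0.852 times the list median, its core was 33.6%, and its longest unbroken core was 23.2 kb. A neighbouring domain began 1.6 kb after its end.

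The second longest, on chromosome 16 from 92614801 to 93579200, is by general knowledge the domain over Runx1, the master transcription factor of blood stem cell formation. Over its 964 kb it was 88.0%, 93.9% and 86.2% covered with vehicle and 87.8%, 91.2%, 87.9% and 90.004% with TCPOBOP, and had a core of 73.3%. Values of the 2 groups lay within one another. The third longest, 696 kb on chromosome 7 from 37106401, had a mean cover of 76.9% and a core of 30.9%. The ninth longest, 647 kb from 38071601, lay 269 kb after it, with a mean cover of 88.1% and a core of 62.9%.

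The domain on chromosome 8 from 11937201 to 12627600 holds, by general knowledge, Sox1, a transcription factor of early neural progenitors that liver cells do not use. It reached 690 kb and was nearly solid. Cover was 98.4%, 99.2% and 99.8% with vehicle and 98.7%, 99.2%, 99.2% and 98.7% with TCPOBOP. Its core of 97.0% was the largest of all 549 domains. Vehicle replicate 3 had 1 unbroken island over it, and the other livers had 2 or 3. A break at one place, within 12130801 to 12134400, was seen in vehicle replicate 1 and TCPOBOP replicates 1, 3 and 4, with lengths of 3.2, 3.6, 3.2 and 2.8 kb. Vehicle replicate 2 broke nearby, from 12121601 to 12124800, and TCPOBOP replicate 2 elsewhere, from 12517201 to 12521200. A second break in vehicle replicate 1, from 12269201 to 12272000, was seen in no other liver. One gap of this domain was therefore at a common place in 4 of 7 livers, and 3 gaps were each seen in 1 liver.

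Ncam1, a neural cell adhesion molecule, lies by general knowledge in the domain on chromosome 9 from 49186401 to 49859200. It reached 673 kb, with a mean cover of 97.3%, a core of 88.8% and 2 to 7 islands. Other long domains were 661 kb on chromosome 7 from 139191601 (mean cover 95.8%, core 82.8%), 676 kb on chromosome 6 from 92280001 (81.8%, 47.5%), 660 kb on chromosome 17 from 44252801 (86.3%, 57.8%) and 643 kb on chromosome 19 from 28286001 (82.7%, 44.4%). Great length thus went with cores anywhere between 30.9% and 97.0% among the 10 longest domains.

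**Figure D2:**
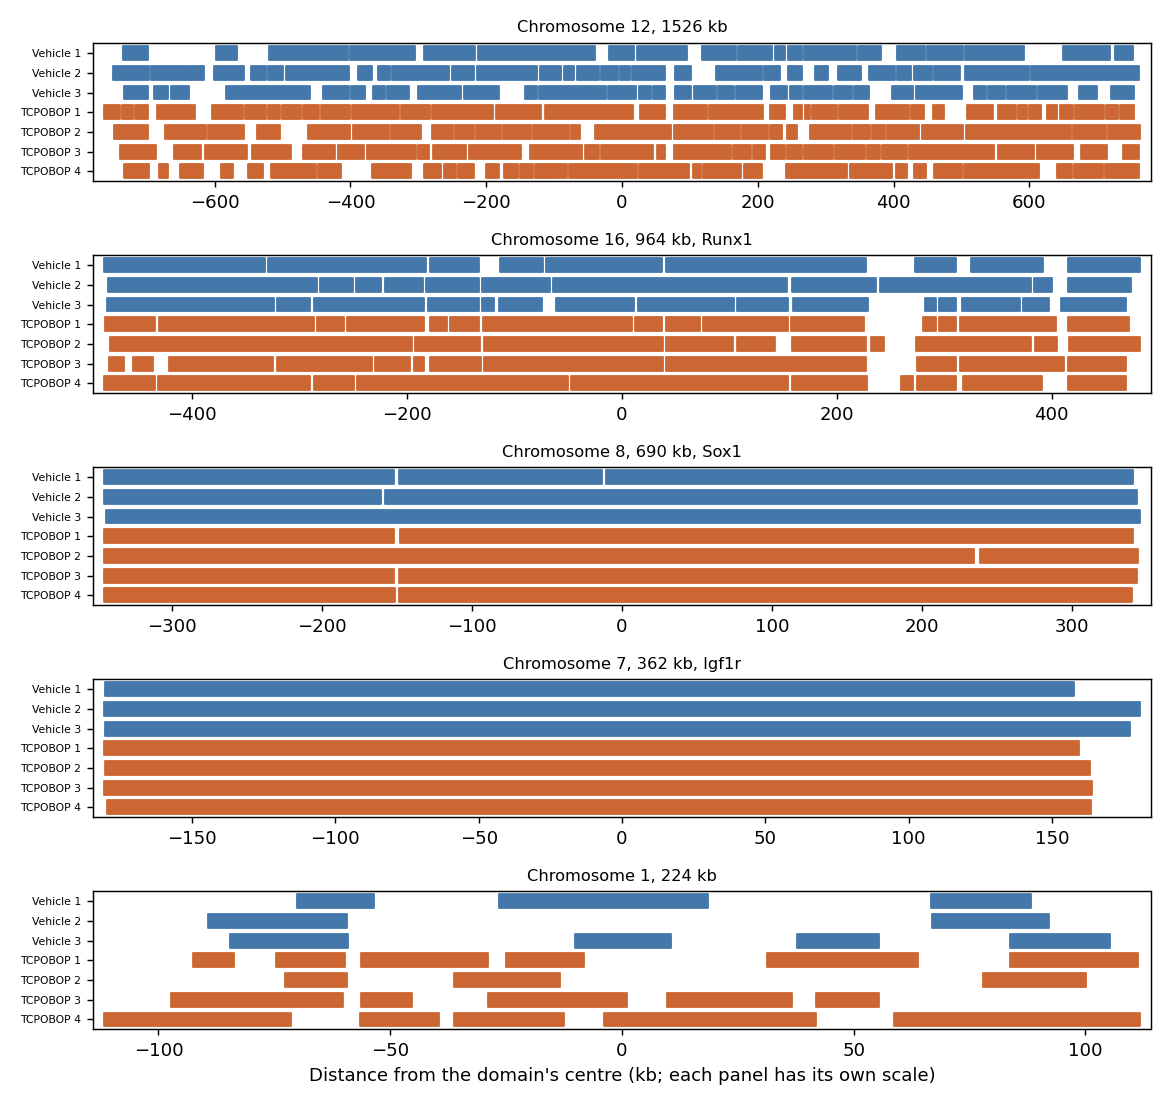
Islands (bars) of each liver, vehicle in blue and TCPOBOP in orange, along 5 domains, plotted as distance in kb from the domain's centre with a separate scale in each panel. The 1526-kb domain is broken in all livers, the Sox1 domain has at most 3 islands in a liver, the Igf1r domain is 1 island in all 7, and the 224-kb domain on chromosome 1 has no position marked in every liver.

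One domain was a single island in all 7 livers. It lay on chromosome 7 from 75050001 to 75411600 and by general knowledge covers Igf1r, the receptor of insulin-like growth factor 1, which adult hepatocytes are known to express little. Cover was 93.5%, 100% and 98.9% with vehicle and 94.1%, 95.02%, 95.4% and 94.9% with TCPOBOP. Its end varied by 23.2 kb and its start by 1.2 kb, and the 337-kb stretch from 75051201 to 75388400 was under islands in every liver, the longest such stretch of any domain. Of the other domains, 454 were never a single island in any liver and 58 were so in 1 liver.

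Score density set a small group of domains apart from the rest. The score is the authors' value for an island and grows with the number of reads, so it was divided by the island's windows and by the median over all islands of the same list. Averaged over the 7 livers this ratio ran from 0.690 to 3.87 with a median of 1.23; 43 domains (7.83%) were above 2 and 113 (20.6%) below 1. Domain medians within the lists were 1.19, 1.28 and 1.20 with vehicle and 1.22, 1.27, 1.23 and 1.23 with TCPOBOP, highest in vehicle replicate 2 and TCPOBOP replicate 2. The corresponding raw medians were 3.04, 3.87, 3.30, 3.22, 3.87, 3.42 and 3.43 per window. These were not tested between groups, because raw scores depend on depth.

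The 4 densest domains are by general knowledge those of HoxD, HoxC, HoxA and Pax2. Hox genes encode the homeodomain factors that set position along the body axis, and Pax2 is a regulator of kidney and midbrain development. The HoxD domain, on chromosome 2 from 74432401 to 74663200, had ratios of 3.03, 4.97 and 3.93 with vehicle and 3.78, 4.26, 3.01 and 4.11 with TCPOBOP. HoxC (chromosome 15, 102550801 to 102923600) had 3.11, 4.45 and 3.74 and then 3.51, 4.07, 3.40 and 4.03. The ranges of the groups overlapped in each, with vehicle replicate 2 highest.

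HoxA (chromosome 6, 51972401 to 52298400) and Pax2 (chromosome 19, 44640001 to 44936400) had mean ratios of 3.64 ± 0.603 and 3.44 ± 0.661 (SD, n = 7 livers). Cover of the 4 domains averaged 90.8% (HoxD), 96.8% (HoxC), 94.5% (HoxA) and 95.9% (Pax2), and each had at most 3 islands in any liver. Pax2 was 1 island in 5 livers and HoxA in none. The 4 densest domains were thus 231 to 373 kb long. The next in density was a 243-kb domain on chromosome 8 from 12723201 to 12966400, ratio 3.21. It began 95.6 kb after the Sox1 domain (ratio 3.00), which ranked 6 by density and 4 by length.

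Pdx1, needed to form the pancreas, and Cdx2, needed for the intestine, share by general knowledge a short domain on chromosome 5 from 147920801 to 148130400. Its mean ratio was 2.87 ± 0.472 (SD, n = 7 livers), rank 9 of 549, although it ranked 502 by length. By contrast Runx1 and Ncam1 had ratios of 1.42 and 1.45, ranks 179 and 169. Igf1r was at 2.47. Length and density were nearly unrelated across the 549 domains (Spearman rho 0.0945), whereas cover rose and breaks per 100 kb fell with density (rho 0.721 and -0.694). These correlations are across domains, which share their libraries, and density and cover come from the same islands.

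**Figure D3:**
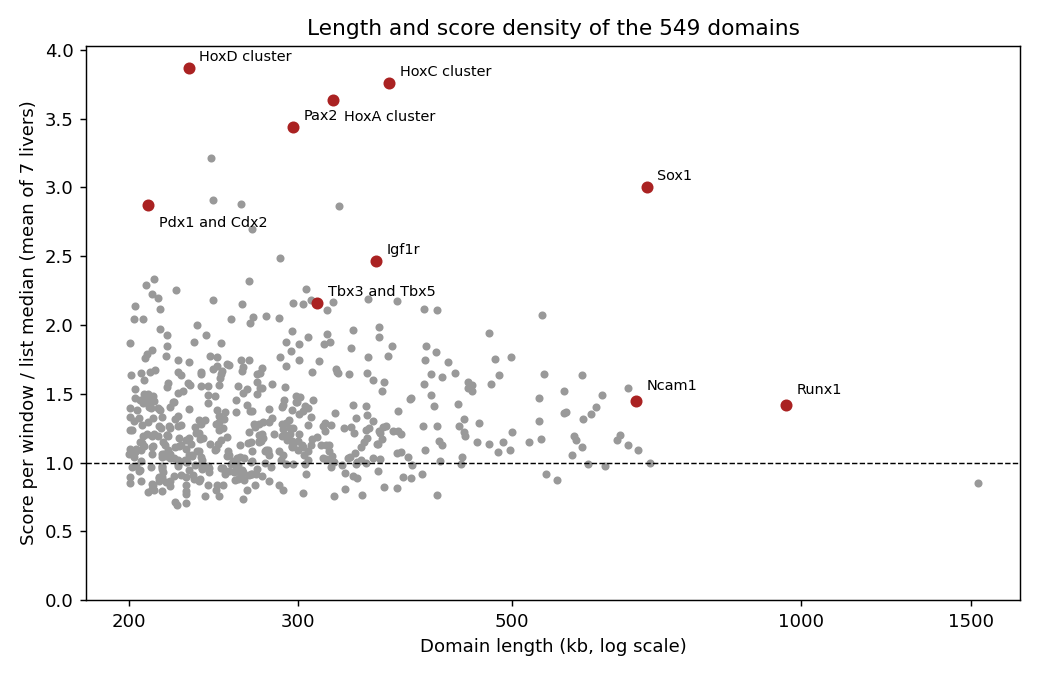
Each point is 1 of the 549 domains, by length in kb (log axis) and by score per window divided by the median of its list, averaged over 7 livers; the dashed line marks a ratio of 1 and red points carry gene names from general knowledge. Density is highest for the HoxD, HoxC, HoxA and Pax2 domains, at 3.44 to 3.87, and the widest domain lies at 0.852.

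At the sparse end, the 5 lowest ratios were 0.690 on chromosome 1 from 77204801, 0.703 on chromosome 10 from 91651601, 0.714 on chromosome 1 from 71304401, 0.732 on chromosome 8 from 115821601 and 0.757 on chromosome 12 from 35008801. These domains were 224 to 263 kb long with cores of 0% to 7.85%. The last was covered 81.3%, 19.5% and 84.0% with vehicle and 76.6%, 28.1%, 66.8% and 73.5% with TCPOBOP. Cover was far lower in vehicle replicate 2 and TCPOBOP replicate 2 than in the other 5 livers. Its right end moved by 188 kb between livers.

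The same 2 livers had the least cover in sparse domains as a class and the most in dense ones. In the 113 domains with a ratio below 1, mean cover was 75.3%, 64.0% and 72.2% with vehicle and 69.2%, 65.8%, 77.2% and 72.6% with TCPOBOP. Among the 43 above 2 it was 91.6%, 94.1% and 91.4%, then 91.3%, 94.8%, 92.7% and 93.1%. They were also the pair that were most often the 2 least covered livers, in 70 domains (12.8%), followed by vehicle replicate 3 with TCPOBOP replicate 1 in 57. Their cover correlated over the 549 domains with r = 0.816, against 0.440 to 0.708 for the other pairs. One of this pair received vehicle and the other TCPOBOP, and both libraries had the shortest total island length; the part of either in this pattern was not tested.

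The best covered domain, 99.1%, lay on chromosome 15 from 73710801 to 74191200 and had 1 to 3 islands in a liver. With Sox1 (99.0%) the top 5 held domains on chromosome 6 from 53437601 (98.1%), chromosome 11 from 71695201 (97.9%) and chromosome 7 from 143437201 (97.8%). The least covered were at 45.3% on chromosome 1 from 71304401, 46.2% on chromosome 9 from 15735601, 48.6% on chromosome 1 from 77204801, 50.1% on chromosome 11 from 88159601 and 50.1% on chromosome 10 from 63315201. Over all domains the median of the mean cover was 86.5%; 48 exceeded 95% and 21 were below 60%. The chromosome 11 domain showed how far livers could differ, with 33.2%, 60.2% and 23.3% covered with vehicle and 22.6%, 100%, 79.5% and 31.8% with TCPOBOP.

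Broad domains lay unevenly along the genome. Chromosomes 11 and 9, with 48 each, had 0.394 and 0.387 domains per Mb up to their last island, and broad domains occupied 11.8% and 12.6% of that length. Chromosome 5, also with 48, had 0.315 per Mb. Chromosomes 10 and 3 had the fewest per Mb, 0.0925 and 0.113, with 12 and 18 domains. Relative to all shared regions, broad domains were 11.9% of those on chromosome 9 and 3.83% on chromosome 10. Mean cover was lowest on chromosome 10 (76.3 ± 5.25%, SD, n = 3, with vehicle and 76.6 ± 1.81%, SD, n = 4, with TCPOBOP) and highest on chromosome 15 (87.7 ± 0.925% and 88.6 ± 0.553%).

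Neighbouring domains were often close. The distance between consecutive domains had a median of 1206 kb and ran from 1.6 kb to 50.8 Mb. Of the 549, 282 (51.4%) had another within 500 kb, forming 107 clusters, and 267 stood alone. In 55 of 530 intervals the distance was under 50 kb. Most clusters, 68, were pairs; 21 held 3 domains, 11 held 4, 5 held 5, 1 held 6 and 1 held 8.

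The cluster of 8 lay on chromosome 5 from 116603601 to 120565600, where domains took up 68.2% of 3962 kb. From left to right its domains started at 116603601, 117136001, 117852401, 118708801, 119204001, 119608401, 120034801 and 120355601. Their mean covers were 87.7%, 75.8%, 92.3%, 94.8%, 91.0%, 69.0%, 89.996% and 97.1%, and their density ratios 1.28, 0.917, 1.36, 2.26, 1.28, 0.768, 2.16 and 1.47. The seventh holds, by general knowledge, Tbx3 and Tbx5, T-box factors of heart and limb formation. It was covered 87.6%, 96.3% and 83.9% with vehicle and 81.1%, 95.9%, 86.1% and 99.0% with TCPOBOP. Dense and sparse domains alternated over short distances: the sixth, 8.4 kb before the Tbx domain, was among the sparser of all 549. The cluster of 6 lay on chromosome 13 from 55885201 to 59548800, with mean covers of 77.1% to 95.5%.

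The treatment comparison asked whether islands filled, broke or reached across these domains differently after TCPOBOP. Since the rule required an island in every list, a domain lost or gained outright with TCPOBOP could not be among them. Domain length was itself set by the joined islands of both groups. Mean cover over the 549 domains was 85.5%, 82.7% and 82.5% with vehicle and 82.0%, 83.2%, 85.9% and 84.5% with TCPOBOP. These values interleaved, with TCPOBOP replicate 3 highest and TCPOBOP replicate 1 lowest. Group means were 83.6 ± 1.67% (SD, n = 3) and 83.9 ± 1.66% (SD, n = 4). The difference of 0.323 percentage points was smaller than either SD and ran from -0.337 without TCPOBOP replicate 3 to 1.29 without vehicle replicate 1. It was -0.117 without vehicle replicate 2 and 0.550 without TCPOBOP replicate 2. Domains held 24.4%, 25.98% and 23.8% of autosomal island length with vehicle and 23.4%, 26.1%, 23.8% and 24.2% with TCPOBOP.

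**Figure D4:**
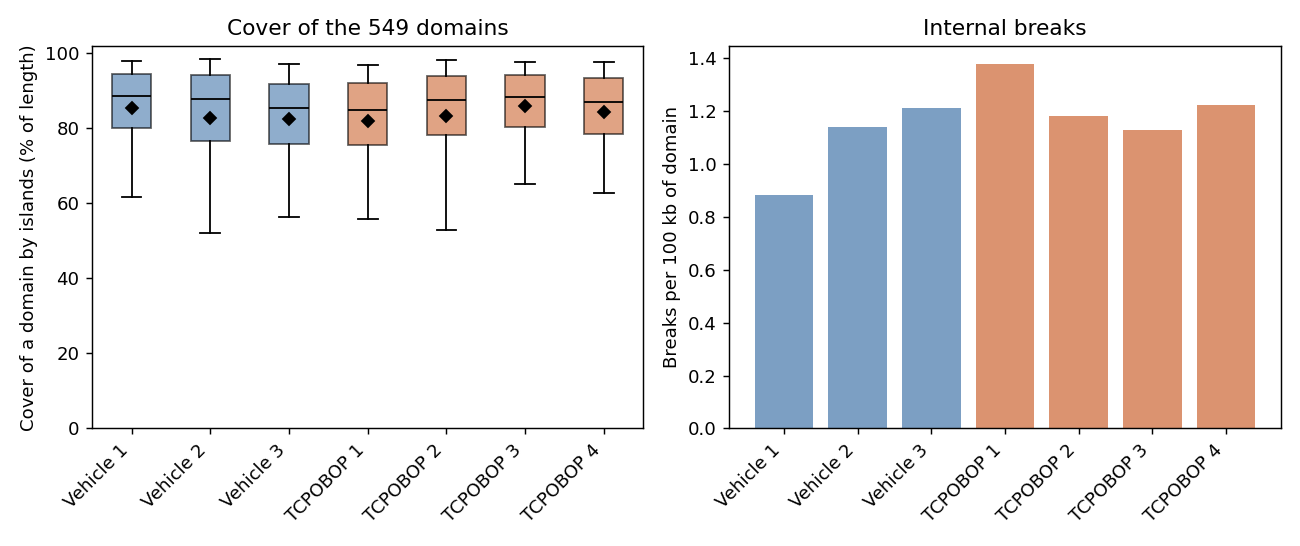
Left, cover of the 549 domains in each liver (% of length; boxes are quartiles with the median as a line, whiskers the 5th and 95th percentiles, diamonds the mean), with means of 82.0% to 85.9% that interleave between vehicle (blue) and TCPOBOP (orange). Right, internal breaks per 100 kb of domain, lowest in vehicle replicate 1 at 0.884 and highest in TCPOBOP replicate 1 at 1.38.

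No single domain passed the test for cover. With limma (trend and robust variance, Benjamini-Hochberg over all 13988 regions tested), 0 of 549 domains had an adjusted p under 0.05, against 0% of all regions, and the lowest adjusted p of a domain was 1. At an unadjusted p under 0.05 there was 1 domain (0.182%), against 3.87% of all regions. Among the 6067 shorter regions with an island in every list the share was 3.13%. The median difference was 0.0791 percentage points in domains and 0.592 over all regions, with 279 domains higher and 270 lower after TCPOBOP. The standard error that limma gave a domain had a median of 6.46 percentage points, against 4.52 from the domain's own 7 livers and 24.0 over all regions. In 391 domains (71.2%) the 95% interval lay within 25 percentage points of no change, as it did in 15.99% of all regions. In 533 domains (97.1%) it lay within 50 points, against 37.9% of all regions.

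An added alternative let the variance trend follow region length in place of mean cover. It gave a median standard error of 4.47 points and called 0 domains, with 16 (11 higher, 5 lower) at an unadjusted p under 0.05, or 2.91%, against 4.33% of all regions. Cover in all TCPOBOP livers was above that in all vehicle livers in 12 domains (2.19%, against 1.8% of all regions) and below it in 10 (1.82%, against 1.65%). In either direction this made 22 domains (4.01%), against 3.45% of all regions, so the share was close to the background.

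The 1 domain at an unadjusted p under 0.05 was the 243-kb domain next to Sox1, on chromosome 8 from 12723201. It was 80.9%, 96.1% and 91.6% covered with vehicle and 97.9%, 99.5%, 99.8% and 98.0% with TCPOBOP. The groups did not overlap, and vehicle replicate 1 was lowest. The difference was 9.28 percentage points (SE 3.74, unadjusted p = 0.0154, limma adjusted p = 1).

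The largest gain in mean cover, 25.2 points (limma SE 16.5), was on chromosome 1 from 73116001 to 73334400: 57.3%, 33.0% and 69.0% with vehicle and 79.5%, 59.5%, 87.7% and 86.6% with TCPOBOP. TCPOBOP replicate 2 fell inside the vehicle range. Next were 23.2 points on chromosome 13 from 53156801, 21.3 on chromosome 6 from 32122001, 20.7 on chromosome 1 from 71304401 and 19.6 on chromosome 17 from 10006001. In each of these the ranges of the groups overlapped.

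The largest loss was on chromosome 12 from 90953601 to 91204000, where cover was 74.1%, 34.2% and 83.2% with vehicle and 54.0%, 18.5%, 60.5% and 37.2% with TCPOBOP, a difference of -21.3 points (limma SE 25.1). Vehicle replicate 2 was lower than 3 of the TCPOBOP livers. Differences of -19.8, -17.2, -16.7 and -16.04 points followed on chromosome 9 from 15735601, chromosome 5 from 119608401, chromosome 10 from 63315201 and chromosome 2 from 77578401. Only that on chromosome 10 had groups that did not overlap, at 64.6%, 52.3% and 62.1% with vehicle and 46.9%, 44.1%, 44.4% and 36.3% with TCPOBOP. Each of the 5 gains and 5 losses had a limma adjusted p of 1.

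The domain on chromosome 2 from 77578401 to 77790000 stood out in density as well, with ratios of 1.88, 5.03 and 1.13 with vehicle and 1.45, 1.01, 1.05 and 1.19 with TCPOBOP. Vehicle replicate 2 alone was far above the rest.

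**Figure D5:**
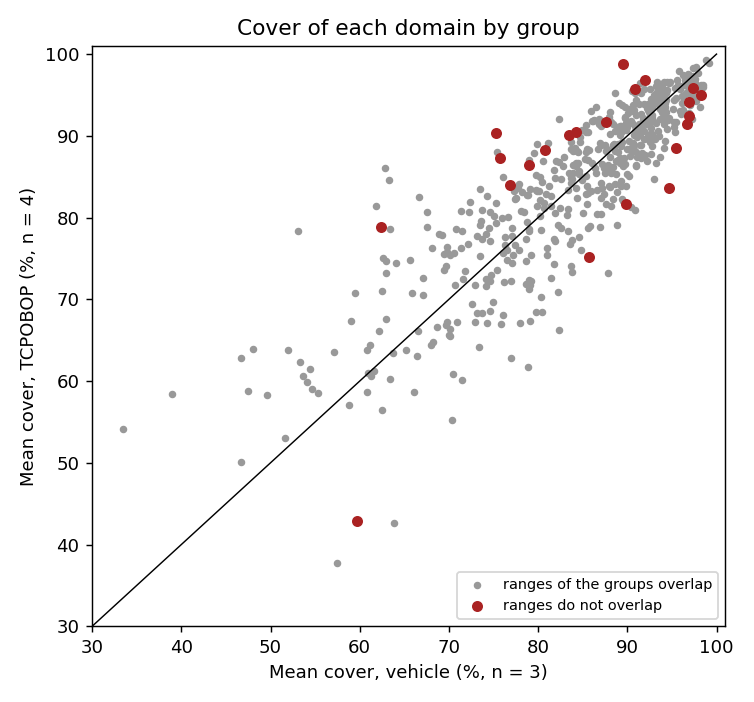
Mean cover (% of length) of each of the 549 domains in vehicle livers (n = 3, horizontal) and TCPOBOP livers (n = 4, vertical), with the diagonal of equal cover; both axes start at 30%. The 22 domains whose group ranges do not overlap (red) lie on both sides of the diagonal, 12 above and 10 below.

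Internal breaks tended to be more numerous after TCPOBOP but the groups overlapped. The domains held 1468, 1895 and 2017 breaks with vehicle and 2290, 1964, 1878 and 2034 with TCPOBOP, or 1.08 ± 0.174 (SD, n = 3) and 1.23 ± 0.107 (SD, n = 4) per 100 kb. The difference of 0.149 per 100 kb fell to 0.0515 without vehicle replicate 1, the library with the fewest islands. It was 0.180 without vehicle replicate 2 and 0.165 without TCPOBOP replicate 2. In the 6067 shorter shared regions the same measure was 0.585, 0.848 and 0.874 with vehicle and 1.11, 0.875, 0.943 and 0.965 with TCPOBOP, so the groups just failed to overlap there.

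Tested with limma over 4998 shared regions, of which 548 were domains, breaks per 100 kb passed in 0 domains (0% of all regions; lowest adjusted p 0.870). At an unadjusted p under 0.05 there were 6 domains (5 with more breaks and 1 with fewer), or 1.09%, against 4.46% of all regions. Estimates were positive in 367 domains and negative in 181, with a median of 0.123 per 100 kb against 0.254 over all regions. The domains share the same libraries, so these are not independent counts, and the share of positive estimates over all regions was not computed. With the variance trend on length the unadjusted count was 42 (38 with more breaks, 4 with fewer), 7.66% against 5.4% of all regions, and 0 passed adjustment. The call did depend on the model: a fit with a replicate block called 2 domains and 98 of all regions. Replicate numbers were not taken as pairs in the main fit, for reasons given at the end, which rest on cover and not on breaks.

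Most breaks were short, and the number of livers that shared one varied. Their median length was 3.6 kb in every liver and the shortest was 2.8 kb, 1 window more than the authors' gap setting of 2400 bp, while the longest in a liver was 118 to 159 kb. Breaks over 10 kb were 20.4% to 25.2% of each liver's breaks. Of 13546 breaks in the 7 livers, 25.9% had their midpoint under an island in all other livers, and 23.5%, 17.7%, 13.4%, 11.7% and 7.74% were also uncovered there in 1, 2, 3, 4 and 5 other livers. A gap common to all 7 livers ended a region under the merging rule and was not counted as a break. The tally thus leaves out the most widely shared gaps. Per 100 kb, the most broken domain was on chromosome 8 from 26380001 (2.54), followed by chromosome 17 from 75373601 (2.38), chromosome 14 from 49407601 (2.22), chromosome 3 from 53955601 (2.13) and chromosome 10 from 94252001 (2.09). None of these 5 was among the 10 longest.

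Domain reach, from the start of the first island to the end of the last as a share of the merged length, was the one summary over domains whose groups did not overlap. It was 93.5%, 93.5% and 93.3% with vehicle and 93.9%, 94.0%, 94.5% and 94.8% with TCPOBOP, a difference of 0.854 percentage points. In the shorter shared regions reach was 80.0%, 76.3% and 78.1% with vehicle and 78.5%, 75.9%, 80.2% and 79.5% with TCPOBOP, and the groups overlapped. This difference was picked out of 30 summaries after their values were seen and was not tested.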

How the data were processed

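H3K27me3 ChIP-seq of 7 single livers was used (3 vehicle, 4 TCPOBOP), grouped by the sample titles. Bowtie2 2.3.2, SICER 1.1 and build mm9 are named in the submitters' processing notes, and list names show the SICER settings: 400-bp windows, gaps of up to 2400 bp, E-value 100. The deposited lists give, per liver and without pooling, the position of each island and the authors' score for it, which grows with length and depth. Input control, filters and read numbers are not given in the sources used here, so depth is unknown and no counting interval can be given; lists differ in number of islands and total length.

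From the lists, islands of all livers that overlapped or met were joined, and cover, internal breaks (gaps between islands of 1 liver inside a region) and score per window were computed per liver (Python 3.11.15, NumPy 2.4.6, pandas 2.3.3, SciPy 1.17.1, Matplotlib 3.10.9). Cover was compared over 13988 regions (an island in at least 2 livers, cover not constant). Breaks were compared over 4998 regions (an island in all livers, number of breaks not constant). Both used limma 3.58.1 in R 4.3.3 with trend and robust variance, Benjamini-Hochberg adjustment and a threshold of 0.05. The fit was also run on simulated covers, drawn with the same spread in all regions and with losses only in well covered ones. That run does not show the power of the fit in these data. The widest domain had two-sided exact permutation tests. Scores were used within a list only. Coordinates are 1-based mm9, except promoters (RefSeq, GRCm38.p6). Alternatives were merging across 2400 bp, other length thresholds, lists of equal total length, a minimum score of 200, other variance models, a replicate block and leaving out each liver.

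The domains and the rules for naming them were chosen with earlier results of these data known. Domains were named if they were among the 10 longest, the 5 highest or lowest in density or cover, the 5 most broken, the 5 with the largest gain or loss of cover, the 3 nearest the length threshold, or in the largest cluster; the 10 with gene names, the domain of 1 island in all livers and others singled out were chosen after their values were seen.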

Additional observations from a re-analysis of the deposited data

Results flagged for a closer look

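Of 57 measures of the 4 TCPOBOP livers (7 summaries over domains and the cover of 50 named domains), a single one showed a value well apart from the rest of its group, where about 1 in 20 would by chance. In the HoxA domain on chromosome 6 from 51972401 to 52298400 the cover of TCPOBOP replicate 2 was 98.4%, against 94.4%, 94.5% and 94.1% in TCPOBOP replicates 1, 3 and 4.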

How the results depend on the processing

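The number of domains was 549 by the rule, 986 with a length of at least 150 kb and 197 with at least 300 kb, 603 with islands up to 2400 bp apart merged, 551 with an island in at least 6 lists, 531 with lists of equal total length, 448 with scores of at least 200, and 498 to 526 when each liver was left out. The share with a neighbour was 37.3% within 250 kb and 66.5% within 1000 kb. The median density ratio was 1.23, and 1.06 when the score was divided by all windows of a domain, covered or not. Domains whose groups do not overlap in cover numbered 22, 20 with lists of equal total length, and 34 to 82 with each liver left out, where fewer livers make separation easier. limma called 0 domains for cover under every alternative run. The count at an unadjusted p under 0.05 was 1 for cover, 16 with the trend on length, 7 without vehicle replicate 2, and 0 to 3 in the other fits. For breaks it was 6, 42 with the trend on length, 55 with the replicate block, 13 with no trend and no robust variance, and 1 to 9 with each liver left out (1 without vehicle replicate 1, 9 without TCPOBOP replicate 2). With ordinary variance moderation (no trend, not robust) 13 regions passed for cover, 0 of them domains. With the replicate block it called 0 domains for cover and 2 for breaks (98 of all regions), where the fit without the block called 0. Same-numbered livers deviated in cover from their group means with correlations of 0.0269, 0.278 and 0.0693 over 13988 regions, so the numbers were not taken as pairs. Over the 549 domains these correlations were 0.181, 0.604 and 0.187. There vehicle replicate 1 went about as well with TCPOBOP replicate 3 (0.187), and vehicle replicate 3 went best with TCPOBOP replicate 1 (0.257). No such correlation was computed for breaks, so pairing was not checked on the measure whose calls changed with the block. The depth of the libraries is not known from the lists, and its part in breaks and absent islands was not tested.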
